A study of Mus musculus with 12 samples.

Results

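Collagen chains are the polypeptides that wind in threes into the triple helices of the extracellular matrix. Genes were taken as collagen chains by their symbol (Col, a number, the letter a, a number) and their annotation as protein coding. Of 25319 genes in the read counts 43 matched, and the 35 with at least 10 reads in 3 or more of the 12 libraries are described. All 35 also passed the filter on low counts of the test across genes. The remaining 8 matching chains (Col2a1, Col6a5, Col9a1, Col9a3, Col17a1, Col19a1, Col24a1 and Col25a1) had at most 11 reads in any library and are not described further. Left ventricular RNA was sequenced from 12 male mice of the C57BL/6 strain, 1 library a mouse. At 8 weeks of age 6 mice had transverse aortic constriction (TAC), a partial ligation of the aortic arch that raises the pressure the ventricle works against, and 6 had a sham operation. In each arm 3 mice then were given oral dantrolene, 30 mg/kg each day over 4 weeks, and the other 3 were controls, for which the labels name no vehicle. All were sampled at 12 weeks of age, and no mouse is labelled as carrying a transgene or a deleted allele. Dantrolene inhibits ryanodine receptors, through which muscle cells release stored calcium, and the study asked how it bears on hypertrophy under pressure overload.

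Fibrillar collagens such as types I, III and V form the tensile fibrils between muscle cells, and in the heart they are made mainly by fibroblasts. Type IV collagen forms the sheet-like network of basement membranes around myocytes and vessels, type VI forms beaded microfibrils next to these membranes, and type VIII forms a short-chain network known from vessel walls. Fibril-associated collagens (FACITs) sit on the fibril surface, and types XV and XVIII (multiplexins) carry sugar chains and lie in basement membrane zones. In pressure-loaded hearts, deposition of fibrillar collagen is a known part of fibrosis.

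Libraries held 25766378 to 38363106 reads, and libraries of the same group always differed by more than sampling noise, with a chi-square per gene of at least 31.7. The tissue label was checked against 6 cardiac myocyte markers, most of which are not limited to the ventricle. Their summed level was 43000 to 59000 CPM (read counts scaled to library size with TMM factors) in every library. The atrial genes Myl7 and Sln stayed at or under 1.90 and 1.50 CPM. The 5 measured atrial markers summed to 200.0 to 483 CPM in sham control, 271 to 357 in sham dantrolene, 540.0 to 2030 in TAC control and 116 to 368 in TAC dantrolene. Most of that was Nppa (up to 2020 CPM), which ventricles under load are known to express, while Myl4 reached 9.8 and Dkk3 8.05 CPM. All 4 atrial markers tested had positive fold changes for TAC control against sham control (median 2.13), as did 57.2% of all genes. The first principal component (41.7% of the variance) separated 4 libraries, 1 a group, from the other 8. They were number 3 of both sham groups and number 1 of both TAC groups, and are called the libraries apart. Genes whose longest transcript exceeds 5000 bases took 5.06 to 8.67% of the reads in these 4 libraries and 9.0 to 14.2% in the other 8. Of the 35 chains 28 exceed 5000 bases, with a median of 6119 against 3198 over all genes tested. The part of transcript length in the collagen levels was not tested. In the 4 libraries apart 25 chains averaged lower and 10 higher than in the other 8. Values without them are given beside the main results. Mitochondrial genes took 1.71% of the reads in TAC dantrolene 2 and 7.1 to 22.4% in the other 11 libraries.

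Levels of different chains were compared in FPKM, which is scaled to transcript length. The median over 12 libraries was 43.4 FPKM for Col4a1 and 37.1 for Col4a2, the common chains of basement membrane collagen, and Col4a1 lay above Col4a2 in every library. Col3a1 followed with 19.6, Col1a2 with 18.9, Col6a1 with 18.1, Col6a2 with 12.6, Col1a1 with 10.5 and Col15a1 with 9.49 FPKM. The ranges of neighbours in this order overlapped widely, for example 9.90 to 39.8 FPKM for Col3a1 and 7.0 to 38.8 for Col1a2. At the low end Col12a1 had a median of 0.030 FPKM and 5 to 134 reads a library. The 6 basement membrane chains held 41.2 ± 4.94% of the summed FPKM of the 35 chains in sham control, 43.1 ± 7.95% in sham dantrolene, 40.3 ± 2.27% in TAC control and 41.7 ± 8.03% in TAC dantrolene (SD, n = 3). The 9 fibrillar chains held 30.0 ± 3.5%, 32.6 ± 5.93%, 34.5 ± 5.57% and 30.6 ± 3.36% in the same order, and the type VI group with Col28a1 held 19.0 ± 0.824%, 15.7 ± 0.633%, 16.3 ± 1.63% and 17.8 ± 4.32%. For the basement membrane and fibrillar classes the mice of a group differed more than the group means did. For the type VI group the range of sham dantrolene, 15 to 16.1%, lay below that of sham control, 18.5 to 20.0%. The total differed more than the makeup did. Summed FPKM was 172.3 to 201 in sham control, 150.3 to 227 in sham dantrolene, 98.7 to 308 in TAC control and 85.6 to 302 in TAC dantrolene, so the lowest and second highest totals both came from hearts with TAC and dantrolene. In reads, the 35 chains took 0.061 to 0.217% of a library.

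**Figure D1:**
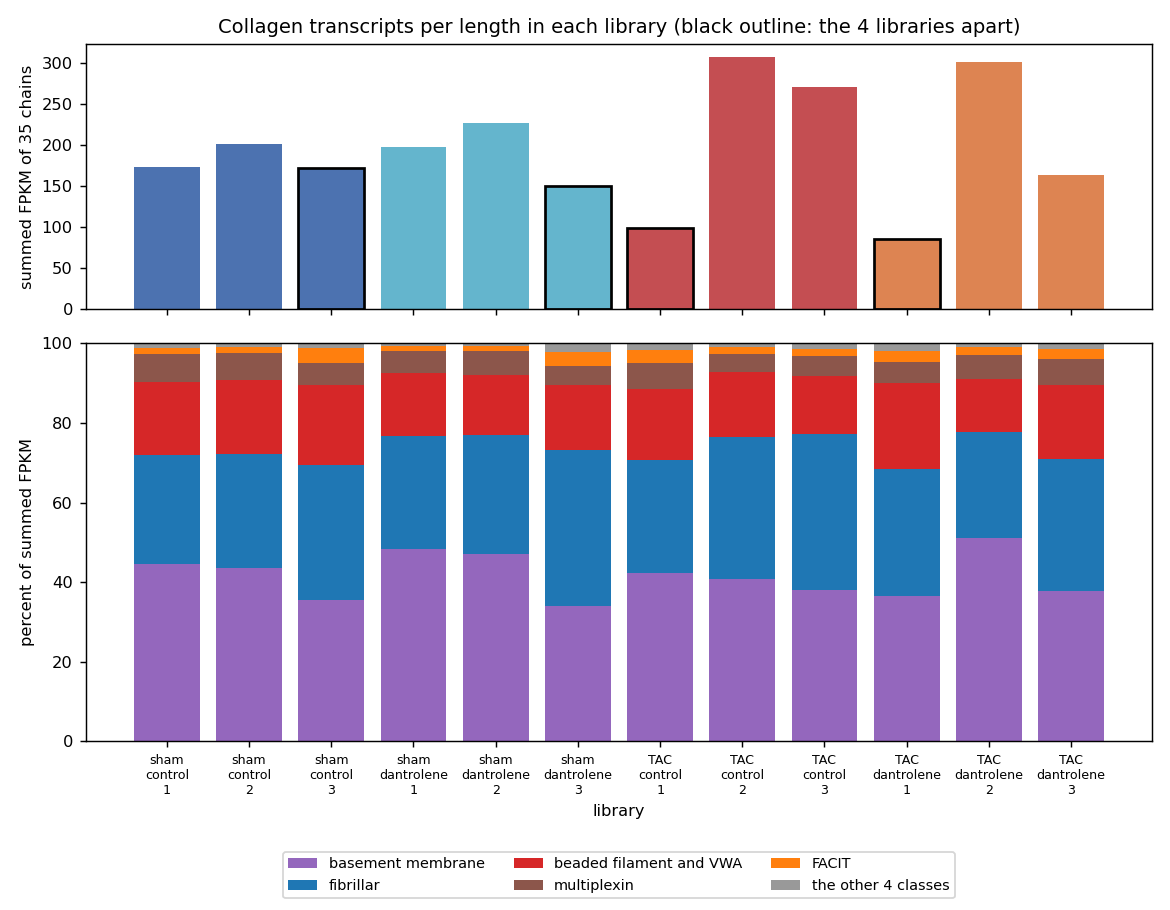
The upper panel plots the summed FPKM of the 35 collagen chains in each of the 12 libraries, and the lower panel the percent of that sum held by each structural class. Totals ran from 85.6 in TAC dantrolene 1 to 308 in TAC control 2, while basement membrane and fibrillar chains together held most of the sum in every library.

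Types I and III collagen were highest in TAC control mice 2 and 3, while TAC control mouse 1 lay within or under the sham range. Col1a1 and Col1a2 encode the α1 and α2 chains of type I collagen, the main fibril former of the heart. Col1a1 (ENSMUSG00000001506.10, GRCm38 chromosome 11, 94936224 to 94953042, plus strand) measured 59.5, 71 and 67.7 CPM in sham control mice 1 to 3, 69.2, 81.8 and 72.1 in sham dantrolene, 47.5, 171 and 138 in TAC control and 41.4, 86.2 and 61.5 in TAC dantrolene. TAC control 2 and 3 and TAC dantrolene 2 exceeded every sham library, TAC control 1 and TAC dantrolene 1 lay under all of them, and the groups overlapped. Its log2 fold change was 0.85 ± 0.40 (SE) for TAC control against sham control (adjusted p = 0.643, edgeR) and -0.91 ± 0.40 for TAC dantrolene against TAC control (adjusted p = 1, edgeR). Col1a2 (ENSMUSG00000029661.14, chromosome 6, 4504814 to 4541544, plus strand) measured 84.7, 105 and 116 CPM in sham control mice 1 to 3, 93.8, 93.8 and 142 in sham dantrolene, 69.5, 243 and 209 in TAC control and 62.8, 135 and 119 in TAC dantrolene. TAC control 2 and 3 were again the highest and TAC control 1 and TAC dantrolene 1 the lowest, with fold changes of 0.77 ± 0.43 (adjusted p = 0.673, edgeR) and -0.72 ± 0.43 (adjusted p = 1, edgeR). As fewer cells of a type and less RNA per cell cannot be told apart in bulk tissue, none of these values gives a level per fibroblast.

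Col3a1 encodes the chain of type III collagen, which shares fibrils with type I (ENSMUSG00000026043.16, chromosome 1, 45311538 to 45349706, plus strand). It measured 95.9, 88.5 and 141 CPM in sham control mice 1 to 3, 112, 157 and 154 in sham dantrolene, 89.7, 213 and 249.6 in TAC control and 107, 118 and 87.1 in TAC dantrolene. TAC control 2 and 3 were the highest of the 12 libraries, and TAC control 1 lay below every sham library except sham control 2. The fold change was 0.76 ± 0.36 for TAC control against sham control (adjusted p = 0.638, edgeR) and -0.82 ± 0.36 for TAC dantrolene against TAC control (adjusted p = 1, edgeR). Without the 4 libraries apart, Col1a1, Col1a2 and Col3a1 passed the test in both comparisons. For TAC control against sham control their fold changes were then 1.22, 1.23 and 1.3 (adjusted p = 0.0251, 0.0184 and 0.0231, edgeR), and for TAC dantrolene against TAC control -1.07, -0.83 and -1.18 (adjusted p = 0.0372, 0.0494 and 0.0316, edgeR). These fits were chosen after the data were seen and hold 2 mice a group, and both comparisons share the TAC control mice. They leave out TAC control 1 and TAC dantrolene 1, the lowest libraries for Col1a1 and Col1a2.

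Type V collagen sets the diameter of type I fibrils from inside them. Col5a1, its α1 chain (ENSMUSG00000026837.13, chromosome 2), measured 31.8, 43.9 and 39.6 CPM in sham control mice 1 to 3, 44.6, 46.7 and 55.8 in sham dantrolene, 29.5, 65 and 40.6 in TAC control and 24.9, 53.1 and 36.9 in TAC dantrolene. Col5a2, its α2 chain (ENSMUSG00000026042.14, chromosome 1), measured 14.8, 14.2 and 27.9 CPM in sham control mice 1 to 3, 16.4, 21.8 and 38.1 in sham dantrolene, 18.7, 35.2 and 37.3 in TAC control and 16.7, 25.3 and 17.2 in TAC dantrolene. Sham control 3 and sham dantrolene 3, both libraries apart, were the highest of their groups for Col5a2, and every comparison overlapped. Its fold change for TAC control against sham control was 0.68 ± 0.39 (adjusted p = 0.678, edgeR) and, without the 4 libraries apart, 1.3 (adjusted p = 0.0251, edgeR). Col5a1 showed 0.23 ± 0.33 there (0.46 without the 4 libraries apart), and its groups did not overlap between sham dantrolene and sham control, with 0.35 ± 0.33 (adjusted p = 1, edgeR). Col5a3, the least common chain of the type, measured 5.65, 12.2 and 7.78 CPM in sham control mice 1 to 3, 12.3, 18.1 and 10.5 in sham dantrolene, 10.8, 16.9 and 15.5 in TAC control and 11.9, 21.2 and 5.89 in TAC dantrolene. Its fold changes were 0.75 ± 0.44 for TAC control and 0.68 ± 0.44 for sham dantrolene, each against sham control.

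The other fibrillar chains were scarce. Col27a1 (type XXVII, a fibrillar chain with short helices known from cartilage) measured 1.28, 2.64 and 0.794 CPM in sham control mice 1 to 3, 1.05, 1.46 and 0.827 in sham dantrolene, 0.311, 1.57 and 1.15 in TAC control and 0.607, 4.25 and 2.04 in TAC dantrolene. Its high mean under TAC with dantrolene rested on TAC dantrolene 2: the fold change against TAC control was 1.18 ± 0.70, and 0.38 without that library. Col11a1 (α1 of type XI, a close relative of type V) measured 0.0818, 0.127 and 1.62 CPM in sham control mice 1 to 3, 0.247, 0.404 and 4.63 in sham dantrolene, 2.44, 0.399 and 0.617 in TAC control and 1.17, 0.547 and 0.94 in TAC dantrolene. Its largest values came from libraries apart, and its standard errors of 1.19 or more on the log2 scale were the largest among the chains. Col11a2 ranged from 0.0378 to 1.91 CPM.

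The promoter windows of Col1a2 and Col3a1, the most abundant fibrillar chains with an entry, are shown to set a promoter with several common proximal motifs beside one with a single motif. Each window runs from 250 bases before the start site to 50 from it and comes from RefSeq on GRCm38.p6, whose table holds 28 of the 35 chains (30 windows). Capitals mark CCAAT, the GC-rich motif GGGCGG, which reads CCGCCC where it lies on the opposite strand, and the AT-rich motif TATAAA. Where CCAAT lies on the opposite strand it reads ATTGG. The windows are chr6:4505368-4505667, plus strand, for Col1a2 and chr1:45311288-45311587, plus strand, for Col3a1.
Col1a2: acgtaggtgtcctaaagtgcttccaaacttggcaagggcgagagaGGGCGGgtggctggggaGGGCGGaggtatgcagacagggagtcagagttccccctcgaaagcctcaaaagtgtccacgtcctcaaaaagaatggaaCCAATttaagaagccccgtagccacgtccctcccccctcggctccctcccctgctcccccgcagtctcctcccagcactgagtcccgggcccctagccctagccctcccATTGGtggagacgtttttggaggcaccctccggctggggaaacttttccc
Col3a1: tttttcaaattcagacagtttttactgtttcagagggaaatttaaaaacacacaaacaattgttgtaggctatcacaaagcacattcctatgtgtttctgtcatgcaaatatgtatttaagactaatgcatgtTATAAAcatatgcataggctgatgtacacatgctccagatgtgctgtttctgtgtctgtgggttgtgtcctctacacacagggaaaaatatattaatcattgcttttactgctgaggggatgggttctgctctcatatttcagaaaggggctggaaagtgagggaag
The Col1a2 window held CCAAT at 2 places and GGGCGG at 2, and the Col3a1 window held TATAAA only. Among all 32851 RefSeq windows 37.4% held CCAAT, 35.7% GGGCGG and 13.6% TATAAA, and among the 30 windows of collagen chains 10, 21 and 3 did. These matches describe letters in the window and not binding.

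**Figure D2:**
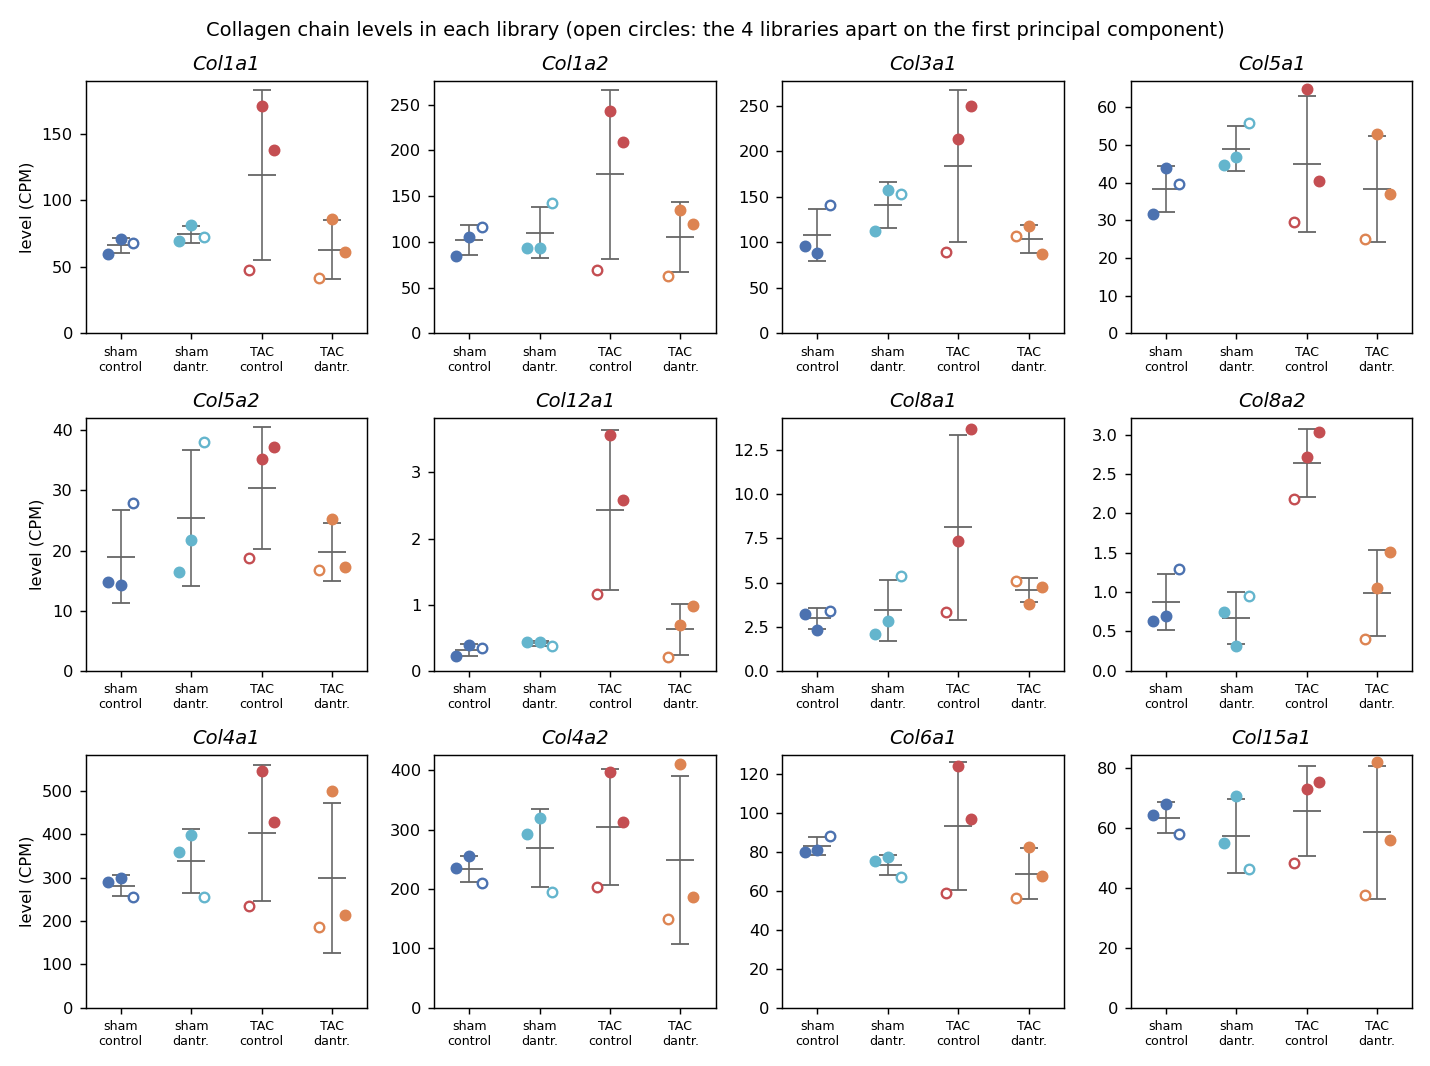
Each panel plots the CPM of 1 chain in the 3 libraries of each group, with the mean and SD in grey and open circles for the 4 libraries apart. Col1a1, Col1a2 and Col3a1 were highest in TAC control 2 and 3, with Col1a1 at 171 and 138 CPM, while Col1a1 in TAC control 1 lay at 47.5 CPM.

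Fibril-associated chains held the largest difference of the family. Col12a1 encodes type XII collagen, which binds to type I fibrils and is known from tissue under load (ENSMUSG00000032332.15, chromosome 9, 79598991 to 79718831, minus strand). It measured 0.218, 0.382 and 0.34 CPM in sham control mice 1 to 3, 0.433, 0.435 and 0.372 in sham dantrolene, 1.16, 3.57 and 2.59 in TAC control and 0.203, 0.694 and 0.971 in TAC dantrolene. All 3 TAC control libraries lay above all other libraries, so the groups did not overlap in either comparison that uses them. The mean was 2.44 ± 1.21 CPM in TAC control and 0.313 ± 0.0850 in sham control (SD, n = 3), a 7.77-fold difference, with a log2 fold change of 2.96 ± 0.60. The edgeR test did not call it (adjusted p = 0.280), and the DESeq2 Wald test did (adjusted p = 0.00107). Against TAC control the TAC dantrolene mean was 0.623 ± 0.389 CPM, with a fold change of -1.95 ± 0.56 (adjusted p = 1, edgeR; 0.23 with DESeq2). Without the 4 libraries apart the values were 3.34 (adjusted p = 0.0177, edgeR) and -1.89 (adjusted p = 0.0563, edgeR). Leaving out 1 library at a time kept the first between 2.57 and 3.29 and the second between -2.39 and -1.57.

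Col14a1 encodes type XIV collagen, another fibril-associated chain (ENSMUSG00000022371.13, chromosome 15). It measured 7.56, 8.75 and 33.6 CPM in sham control mice 1 to 3, 6.98, 9.92 and 36.5 in sham dantrolene, 21.8, 17.6 and 18 in TAC control and 12.9, 14.5 and 13.3 in TAC dantrolene. Sham control 3 and sham dantrolene 3 were far above the other sham libraries, and all 3 TAC dantrolene libraries lay below all TAC control libraries. The fold change for TAC control against sham control was 0.20 ± 0.62 (adjusted p = 0.944, edgeR). It was 1.1 (adjusted p = 0.0404, edgeR) once the 4 libraries apart were left out, and -0.49 ± 0.62 for TAC dantrolene against TAC control (adjusted p = 1, edgeR). Col16a1 (type XVI, found beside fibrils and microfibrils) measured 6.63, 8.02 and 8.39 CPM in sham control mice 1 to 3, 5.99, 5.85 and 7.36 in sham dantrolene, 5.15, 18 and 11.5 in TAC control and 7.0, 14.7 and 8.39 in TAC dantrolene. TAC control 2 and TAC dantrolene 2 stood highest, and its fold change was 0.59 ± 0.42 for TAC control against sham control and 0.65 ± 0.42 for TAC dantrolene against sham dantrolene. Col20a1 measured 0.90, 0.891 and 1.06 CPM in sham control mice 1 to 3, 0.927, 0.747 and 0.372 in sham dantrolene, 0.932, 0.559 and 0.50 in TAC control and 0.364, 1.66 and 0.783 in TAC dantrolene. A sense-overlapping gene with up to 230 reads shares its locus, so its counts are uncertain, and its fold change for TAC control against sham control was -0.53 ± 0.56. Col9a2 and Col22a1 stayed between 0.0618 and 1.26 CPM.

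Type VIII collagen was the second group with large differences. Col8a1 and Col8a2 encode its α1 and α2 chains, short helices that assemble into lattices. Col8a1 (ENSMUSG00000068196.4, chromosome 16, 57624258 to 57754737, minus strand) measured 3.19, 2.29 and 3.4 CPM in sham control mice 1 to 3, 2.1, 2.8 and 5.37 in sham dantrolene, 3.33, 7.35 and 13.7 in TAC control and 5.1, 3.79 and 4.76 in TAC dantrolene. TAC control 2 and 3 were the highest libraries, and TAC control 1 lay within the sham range. Its fold change was 1.46 ± 0.51 for TAC control against sham control (adjusted p = 0.527, edgeR), 1.91 without the 4 libraries apart (adjusted p = 0.0303, edgeR), and -0.84 ± 0.50 for TAC dantrolene against TAC control (adjusted p = 1, edgeR). Col8a2 (ENSMUSG00000056174.8, chromosome 4, 126286793 to 126314330, plus strand) measured 0.627, 0.70 and 1.28 CPM in sham control mice 1 to 3, 0.742, 0.311 and 0.951 in sham dantrolene, 2.18, 2.72 and 3.03 in TAC control and 0.405, 1.05 and 1.5 in TAC dantrolene. Here all 3 TAC control libraries, including TAC control 1, exceeded every other library. The fold change was 1.61 ± 0.53 for TAC control against sham control (adjusted p = 0.512, edgeR), 2.09 without the 4 libraries apart (adjusted p = 0.051, edgeR), and -1.41 ± 0.53 for TAC dantrolene against TAC control (adjusted p = 1, edgeR). The ratio of Col8a1 to Col8a2 in FPKM varied 7.75-fold over the 12 libraries, from 1.29 in TAC control 1 to 10 in TAC dantrolene 1, at 10 to 103 Col8a2 reads a library.

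The basement membrane chains Col4a1 and Col4a2 were the most abundant of all chains and differed between mice more than between groups. Col4a1 and Col4a2 encode the chains of the common type IV trimer. Col4a1 (ENSMUSG00000031502.9, chromosome 8, 11198423 to 11312826, minus strand) measured 291, 299 and 254 CPM in sham control mice 1 to 3, 359, 399 and 256 in sham dantrolene, 236, 546 and 428 in TAC control and 186, 499 and 214 in TAC dantrolene. Col4a2 (ENSMUSG00000031503.11, chromosome 8, 11312805 to 11449287, plus strand) measured 236, 255 and 210.4 CPM in sham control mice 1 to 3, 293, 319.5 and 194 in sham dantrolene, 203, 397 and 312 in TAC control and 150.0, 410.1 and 186 in TAC dantrolene. TAC control 2 and TAC dantrolene 2 were the highest libraries for both chains, and TAC dantrolene 1 was the lowest. For TAC control against sham control the fold changes were 0.52 ± 0.41 and 0.38 ± 0.39 (adjusted p = 0.768 and 0.814, edgeR), and for TAC dantrolene against TAC control -0.43 ± 0.41 and -0.29 ± 0.39 (both adjusted p = 1, edgeR). With 1 library left out, the second difference of Col4a1 ran from -1.01 without TAC dantrolene 2 to -0.14 without TAC control 2. Col4a1 stood at 0.70 and -0.46 in the 2 comparisons without the 4 libraries apart.

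The pair kept close proportions in all libraries. The ratio of Col4a1 to Col4a2 in FPKM was 1.21 ± 0.0733 (SD, n = 12), from 1.12 to 1.34, a 1.2-fold range, while the level of Col4a1 itself ranged from 16.8 to 80.8 FPKM. Other pairs varied more: the range was 1.69-fold for Col6a1 to Col6a2, 1.72-fold for Col1a1 to Col1a2, 2.08-fold for Col1a1 to Col3a1 and 2.83-fold for Col5a1 to Col5a2. Counting noise is larger for the scarcer chains, and a ratio's size depends on the length used: Col1a1 to Col1a2 averaged 0.596 in FPKM and 1.25 per union exon length. Col4a1 and Col4a2 are annotated head to head on opposite strands with 22 bases in common, and their RefSeq windows (chr8:11312777-11313076, minus strand, and chr8:11312555-11312854, plus strand) share 78 bases. Both are printed to show this shared start region, each 5′ to 3′ on its own strand and with the same motifs in capitals.
Col4a1: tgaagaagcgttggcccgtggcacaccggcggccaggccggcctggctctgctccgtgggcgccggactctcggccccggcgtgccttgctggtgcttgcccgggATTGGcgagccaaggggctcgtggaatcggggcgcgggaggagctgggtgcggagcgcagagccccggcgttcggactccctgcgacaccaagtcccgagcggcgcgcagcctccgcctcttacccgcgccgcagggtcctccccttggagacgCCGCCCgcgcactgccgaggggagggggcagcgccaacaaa
Col4a2: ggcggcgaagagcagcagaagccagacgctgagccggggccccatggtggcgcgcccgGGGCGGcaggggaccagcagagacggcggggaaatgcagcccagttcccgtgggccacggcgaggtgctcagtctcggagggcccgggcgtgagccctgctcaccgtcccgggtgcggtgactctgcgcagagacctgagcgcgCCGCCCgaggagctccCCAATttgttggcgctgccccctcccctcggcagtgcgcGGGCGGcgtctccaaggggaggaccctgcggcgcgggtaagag
A single GGGCGG at 11312812 to 11312817 on chromosome 8 lies in both windows and reads CCGCCC on the Col4a1 strand. Each window also held CCAAT once, at separate places (11312967 to 11312971 and 11312773 to 11312777), and neither held TATAAA. The Col4a2 window held 2 further copies of GGGCGG, at 11312613 to 11312618 and, on the minus strand, 11312757 to 11312762.

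**Figure D3:**
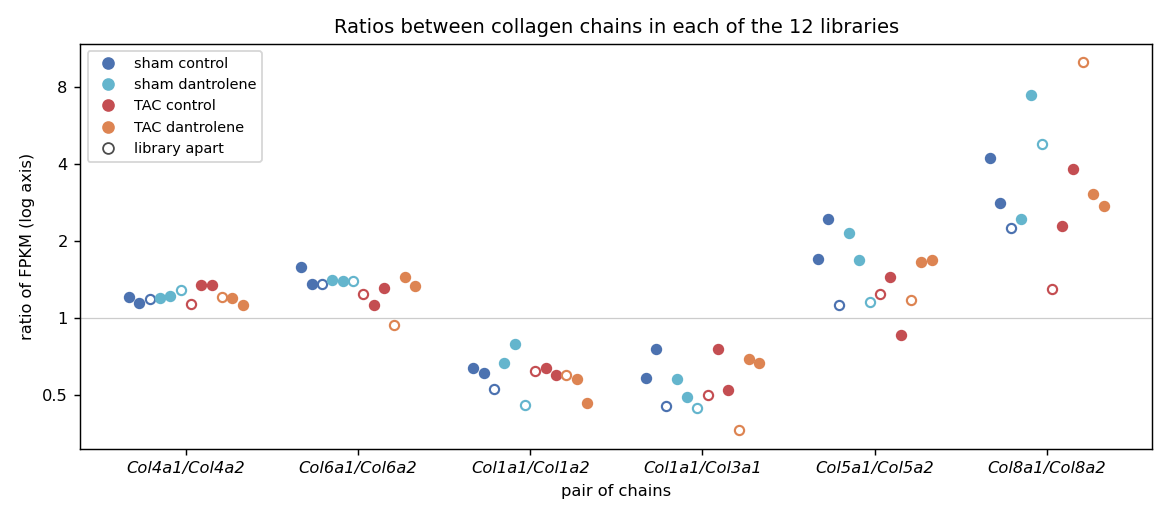
Each point is the ratio of the FPKM of 2 chains in 1 library, on a log axis, in the order of the groups from left to right, with open circles for the 4 libraries apart. The Col4a1 to Col4a2 ratio stayed between 1.12 and 1.34, whereas Col8a1 to Col8a2 ran from 1.29 to 10.

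The minor type IV chains lie in 2 further head-to-head pairs, Col4a3 with Col4a4 on chromosome 1 (72 bases apart) and Col4a5 with Col4a6 on chromosome X (1309 bases apart). Col4a5, a chain of the muscle and kidney basement membrane, had a median of 9.45 CPM and the largest shortfall of the type in the libraries apart, 4.33 against 12.3 CPM. Its partner Col4a6 measured 0.764, 1.15 and 1.17 CPM in sham control mice 1 to 3, 0.803, 1.09 and 0.703 in sham dantrolene, 0.622, 1.2 and 0.941 in TAC control and 0.972, 2.0 and 1.28 in TAC dantrolene. The groups overlapped in every comparison, with 0.72 ± 0.42 for TAC dantrolene against sham dantrolene and 0.62 ± 0.42 against TAC control. Col4a3 and Col4a4 had medians of 0.686 and 3.57 CPM. A transcript on the other strand overlaps Col4a3, and since the strand setting of the counting is not given in the sources used here, their reads may not be told apart.

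Type VI chains, which form beaded microfibrils around cells, showed small differences. Col6a1 (ENSMUSG00000001119.7, chromosome 10) measured 79.8, 81 and 88.2 CPM in sham control mice 1 to 3, 75.2, 77.3 and 67.4 in sham dantrolene, 59.1, 124 and 96.9 in TAC control and 56.3, 82.5 and 67.7 in TAC dantrolene. Col6a2 (ENSMUSG00000020241.11, chromosome 10) measured 73.9, 88.2 and 94.8 CPM in sham control mice 1 to 3, 78.3, 81.5 and 71.2 in sham dantrolene, 70.1, 162 and 108 in TAC control and 88.3, 84.2 and 74.6 in TAC dantrolene. Col6a3 (ENSMUSG00000048126.14, chromosome 1) measured 19, 19 and 15.5 CPM in sham control mice 1 to 3, 17.4, 25.6 and 11.6 in sham dantrolene, 16.1, 18 and 21.4 in TAC control and 20.1, 23.5 and 16.5 in TAC dantrolene. TAC control 2 was the highest library for Col6a1 and Col6a2, and Col6a3 had the smallest spread of all 35 chains (SD 0.30 on the log2 scale). The fold changes for TAC control against sham control were 0.17 ± 0.28, 0.41 ± 0.29 and 0.05 ± 0.30, and for TAC dantrolene against TAC control -0.44 ± 0.28, -0.46 ± 0.29 and 0.11 ± 0.30. Without the 4 libraries apart they were 0.44, 0.72 and 0.03 in the first comparison and -0.56, -0.77 and 0.02 in the second, and none passed the test. Col6a1 lay lower in all 3 sham dantrolene than in all 3 sham control libraries, by a log2 fold change of -0.18 ± 0.28 (adjusted p = 1, edgeR). Col6a6, an alternative to Col6a3 in the trimer, measured 4.64, 5.82 and 6.65 CPM in sham control mice 1 to 3, 3.12, 6.69 and 5.0 in sham dantrolene, 1.91, 3.12 and 4.53 in TAC control and 3.44, 5.55 and 6.42 in TAC dantrolene. Its values lay the other way: all 3 TAC control libraries lay below all sham control libraries, with -0.84 ± 0.42 (adjusted p = 0.656, edgeR) and -0.47 without the 4 libraries apart, and the fold change for TAC dantrolene against TAC control was 0.69 ± 0.42.

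Multiplexins and transmembrane chains completed the list. Col15a1, the main multiplexin of heart and vessel basement membrane zones (ENSMUSG00000028339.15, chromosome 4), measured 64.4, 68.1 and 58 CPM in sham control mice 1 to 3, 55.1, 70.5 and 46.3 in sham dantrolene, 48.4, 73.1 and 75.5 in TAC control and 37.7, 82 and 55.9 in TAC dantrolene. Col18a1, whose cleavage gives endostatin (ENSMUSG00000001435.12, chromosome 10), measured 14.3, 13.3 and 13.5 CPM in sham control mice 1 to 3, 14.1, 17.6 and 16.1 in sham dantrolene, 15.4, 23.6 and 18.3 in TAC control and 8.02, 22.1 and 14.6 in TAC dantrolene. All 3 TAC control libraries exceeded all sham control libraries for Col18a1, with 0.48 ± 0.33 (adjusted p = 0.733, edgeR) and 0.58 without the 4 libraries apart, while Col15a1 showed 0.05 ± 0.31. The gene on the other strand of the Col18a1 locus, Slc19a1, had up to 178 reads. Col23a1, a transmembrane chain, measured 3.06, 2.29 and 2.04 CPM in sham control mice 1 to 3, 1.7, 2.71 and 2.31 in sham dantrolene, 1.86, 0.905 and 1.15 in TAC control and 2.31, 3.35 and 1.82 in TAC dantrolene. It was lower in all 3 TAC control libraries than in all sham control libraries, with -0.92 ± 0.40 (adjusted p = 0.602, edgeR) and -1.41 without the 4 libraries apart, and its fold change for TAC dantrolene against TAC control was 0.94 ± 0.40 (adjusted p = 1, edgeR). Col13a1, Col26a1 and Col28a1 stayed at or under 2.60 CPM.

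A few chains averaged higher in the libraries apart, most of all in those of the sham groups. Col6a4 (an alternative chain of type VI) measured 0.682, 1.34 and 7.22 CPM in sham control mice 1 to 3, 0.989, 1.62 and 24.1 in sham dantrolene, 5.95, 1.12 and 1.97 in TAC control and 3.44, 1.11 and 3.82 in TAC dantrolene. Over the 12 libraries it averaged 10.2 CPM in the 4 libraries apart and 1.58 in the other 8. Col7a1, the anchoring fibril chain of epithelial junctions, averaged 7.47 against 1.53 CPM, Col11a1 2.47 against 0.420 and Col14a1 26.2 against 12.1. In TAC dantrolene the library apart was not the highest for Col6a4, Col7a1 or Col14a1, and for Col14a1 it was the lowest. The longest transcripts of these 4 chains have 7371, 9250, 7667 and 6457 bases. The chains with the shortest transcripts, 2781 to 4912 bases, went both ways. Col9a2, Col26a1, Col13a1 and Col28a1 averaged higher in the libraries apart, with log2 differences of 1.15, 0.97, 0.27 and 0.08. Col6a1, Col6a2 and Col8a2 averaged lower, with -0.34, -0.21 and -0.15. Col4a5, Col11a2 and Col27a1, with 6536, 6048 and 7612 bases, were lower as well, with log2 differences of -1.50, -2.05 and -1.59. The part of transcript length in these differences was not tested. Macrophage markers also moved with the split, from 1050 to 1680 CPM summed in the libraries apart and 435 to 1090 in the other 8, and their part in these levels was not tested. Of 8 cartilage and valve markers, taken because type XI is known from cartilage, 3 had enough reads to test. All 3 had positive fold changes for TAC control against sham control, as did 57.2% of all genes. Their median was 0.61, and 0.32 without the 4 libraries apart. The sum of the list was 6.24 to 24.6 CPM, highest in TAC control 1 and TAC dantrolene 1 (14.7), and most of it was the tendon and valve gene Scx (3.73 to 23.5), while Sox9 reached 2.31 and Acan 0.506 CPM. The part of these markers in the collagen levels was not tested. The comparisons of dantrolene with control in sham hearts gave 1.53 ± 1.17 for Col6a4 and 1.54 ± 1.22 for Col11a1, but -1.23 and -0.87 without sham dantrolene 3.

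**Figure D4:**
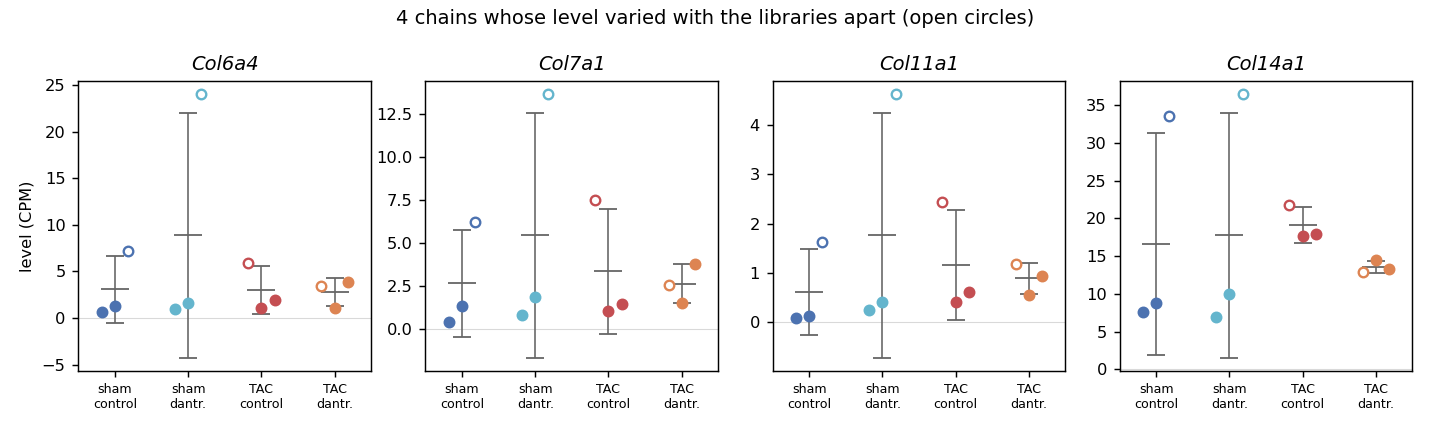
Each panel plots the CPM of 1 chain in every library by group, with the mean and SD in grey and open circles for the 4 libraries apart. The open circles of Col6a4 reach 24.1 CPM in sham dantrolene 3, and in the sham groups the open circle is the highest for all 4 chains.

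Set side by side, TAC control hearts had higher means than sham control hearts for most collagen chains, led by Col12a1, Col8a2 and Col8a1, with types I and III at 1.70 to 1.80-fold. Positive fold changes were seen for 27 of 35 chains (background 57.2% of 14965 genes), with a median of 0.38 against 0.10 over all genes tested. By class, 8 of 9 fibrillar chains were positive (median 0.75), 5 of 6 basement membrane chains (0.45), 5 of 6 fibril-associated chains (0.57), both type VIII chains (1.53) and 3 of 6 of the type VI group (0.01). The edgeR test called 0 chains and 0% of all genes. At an unadjusted p under 0.05 there were 3 chains higher (Col12a1, Col8a1 and Col8a2; background 4.13%) and 1 lower (Col23a1; 3.8%), and DESeq2 called 1 chain (0.533% of genes). Groups did not overlap for 3 chains higher (Col8a2, Col12a1 and Col18a1; background 7.54%) and 2 lower (Col6a6 and Col23a1; 9.82%).

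This comparison depended on the libraries apart. Without them edgeR called 7 of 35 chains, all higher (Col1a1, Col1a2, Col3a1, Col5a2, Col8a1, Col12a1 and Col14a1), against 3.21% of 15069 genes. In those 8 libraries 30 chains averaged higher and 5 lower in TAC control on the log2 CPM scale, with a median of 0.62. In the libraries apart, 1 a group and therefore with no test, 11 were higher and 24 lower in TAC control 1 than in sham control 3, with a median of -0.26. Col1a1 there was 47.5 against 67.7 CPM. With any single library left out of the 12, the median of the 35 chains ran from 0.24 without TAC control 2 to 0.48 without sham control 3, and 0 chains were called each time.

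In mice with TAC, dantrolene went with lower means of most chains than in TAC control, with the largest differences in Col12a1 and Col8a2, followed by Col1a1, Col8a1 and Col3a1. Of 35 chains 24 had a negative fold change and 11 a positive one (background 51.8% positive), with a median of -0.29 against 0.02 over all genes. Fibrillar chains were negative in 7 of 9 cases, basement membrane chains in 4 of 6, fibril-associated chains in 5 of 6 and both type VIII chains, while both transmembrane chains were positive. The edgeR test called 0 chains and 0% of genes, and DESeq2 called 0 chains (0.0809% of genes). At an unadjusted p under 0.05 there were 4 chains lower (Col1a1, Col3a1, Col8a2 and Col12a1; background 1.47%) and 1 higher (Col23a1; 1.78%). With the replicate number as a block there were 6 lower (3.83%) and 1 higher (2.91%) at that threshold, and 0 passed the adjusted test (smallest adjusted p = 0.688, edgeR). Groups did not overlap for 3 chains lower (Col8a2, Col12a1 and Col14a1; 2.08%) and 0 higher (2.68%). Without the 4 libraries apart edgeR called 3 chains, all lower (Col1a1, Col1a2 and Col3a1; 3.17% of genes), and between the 2 libraries apart 16 chains were higher and 19 lower in TAC dantrolene 1 than in TAC control 1. Leaving out 1 library at a time, the median of the chains ran from -0.54 without TAC dantrolene 2 to -0.11 without TAC control 2. Since the TAC control mice enter both comparisons, the opposite signs share those mice and are no separate evidence of each other.

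**Figure D5:**
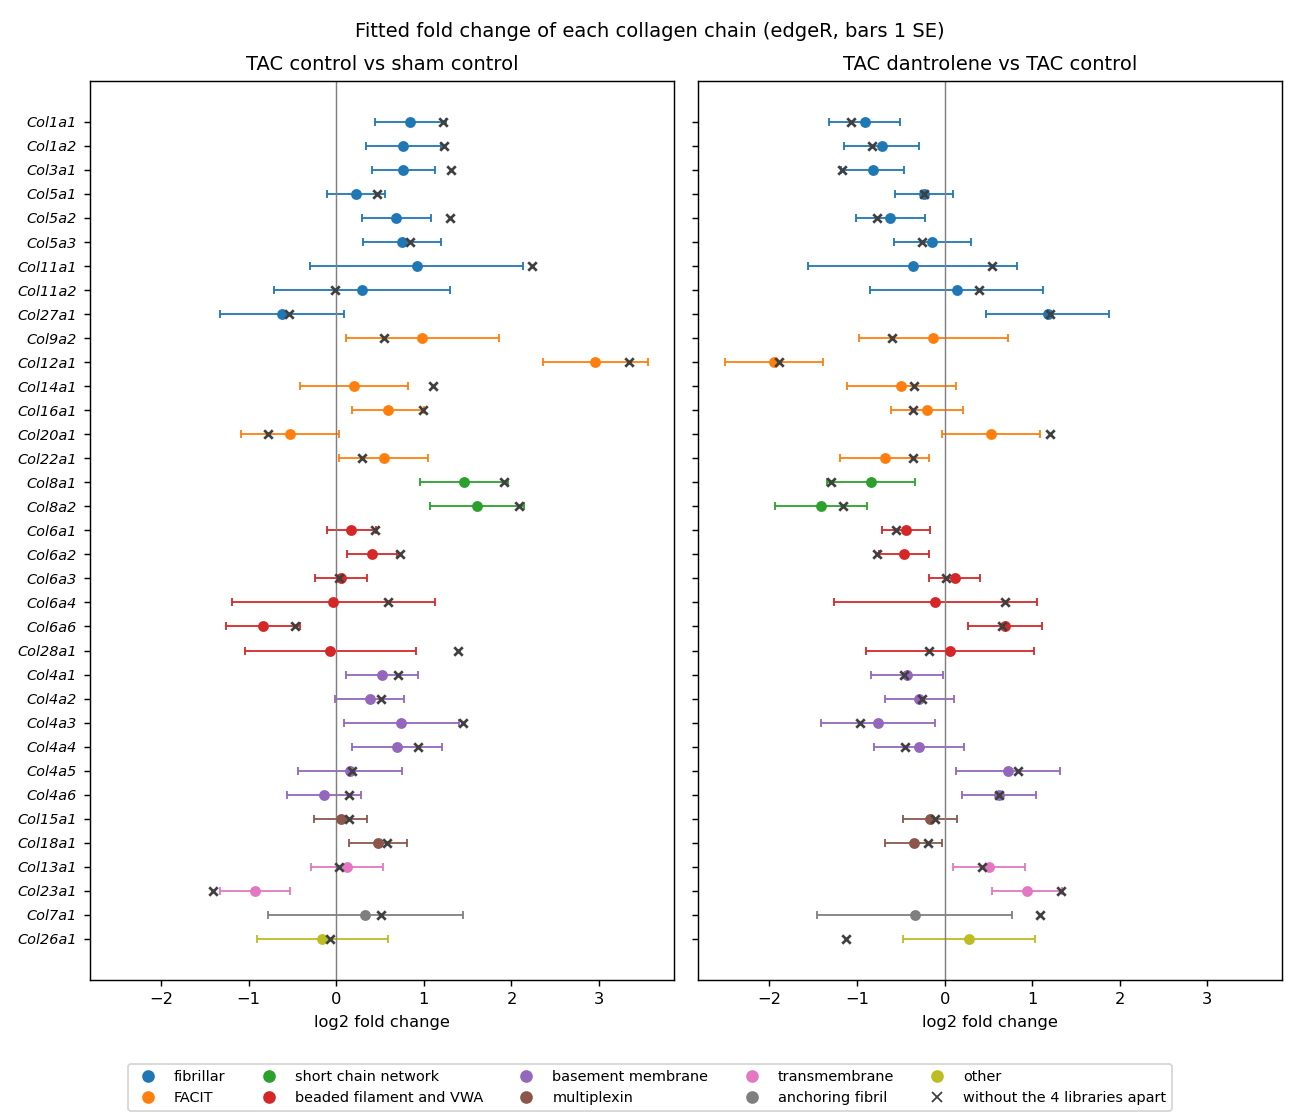
Points are edgeR log2 fold changes of the 35 chains with bars of 1 SE, coloured by class, and crosses the same fold change without the 4 libraries apart. Col12a1 stands at 2.96 in the left panel and -1.95 in the right, and both panels share the TAC control mice.

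In sham hearts the middle of the chains differed little between dantrolene and control, while Col6a4, Col7a1 and Col11a1, which varied with the libraries apart, had fold changes of 1.53 ± 1.17, 1.04 ± 1.12 and 1.54 ± 1.22. Positive fold changes were seen for 22 of 35 chains (background 52.5%), with a median of 0.14 against 0.02 over all genes, and 8 of 9 fibrillar chains were among them. In the edgeR fit of the other 8 libraries alone 21 chains were positive, with the same median of 0.14, and 7 of 9 fibrillar chains. Averaged on the log2 CPM scale in those 8 libraries, 19 chains were higher and 16 lower, with a median of 0.065. No chain had an unadjusted p under 0.05 (background 0.327% higher and 0.388% lower), and edgeR and DESeq2 each called 0 chains and 0% of genes. With the replicate number as a block 7 chains were higher (Col3a1, Col5a1, Col5a2, Col5a3, Col6a4, Col7a1 and Col11a1; 5.39% of genes) and 0 lower (2.4%) at that threshold, and 0 passed the adjusted test (smallest adjusted p = 0.25, edgeR). Groups did not overlap for Col5a1, higher (2.99%), and Col6a1, lower (4.38%), and the median turned to -0.1 without sham dantrolene 3. Between TAC dantrolene and sham dantrolene hearts 18 chains had positive and 17 negative fold changes (background 59.9% positive), with a median of 0.03 against 0.08 over all genes. Again 0 chains had an unadjusted p under 0.05 (1.06% higher and 0.648% lower), edgeR called 0 chains (0% of genes), DESeq2 called 0 (0.027%) and no chain's groups were apart (2.9% higher and 1.96% lower). Of the fibrillar chains, 8 of 9 were negative here, with -0.24 ± 0.40 for Col1a1, -0.44 ± 0.36 for Col3a1 and -0.36 ± 0.33 for Col5a1. Without the 4 libraries apart 22 of 35 chains were positive (median 0.25) and 5 of 9 fibrillar chains negative, with -0.07 for Col1a1, -0.06 for Col5a1 and 0.40 for Col1a2. Between the libraries apart 6 chains were higher and 29 lower in TAC dantrolene 1 than in sham dantrolene 3, with a median of -0.46. The median of the 35 chains was -0.25 without TAC dantrolene 2.

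The interaction asks whether the drug difference under TAC differs from that in sham hearts. It was negative for 24 of 35 chains (background 49.5% positive), with a median of -0.56 against -0.01 over all genes and -0.50 without the 4 libraries apart. It ran from -0.89 without TAC dantrolene 2 to -0.32 without sham dantrolene 3. Col12a1 gave -2.36 ± 0.82 and Col3a1 -1.2 ± 0.51, the 2 chains with an unadjusted p under 0.05 (background 1.27% lower and 1.55% higher), and both had an adjusted p of 1 by edgeR. With the replicate number as a block 10 chains were lower (5.43% of genes) and 2 higher (6.21%) at an unadjusted p under 0.05, and 0 passed the adjusted test (smallest adjusted p = 0.392, edgeR). Col1a1 gave -1.08 ± 0.57, and Col23a1 had the smallest p in the other direction with 1.08 ± 0.56. The edgeR test called 0 chains (0% of genes) and DESeq2 0 (0.00674%), and without the 4 libraries apart edgeR also called 0 chains (0.0465% of genes).

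Genes that process, assemble, bind or degrade collagen were taken from a list of 58, of which 53 had enough reads to test. For TAC control against sham control 43 had positive and 10 negative fold changes (57.2% of all genes were positive), with a median of 0.37. At an unadjusted p under 0.05 there were 10 higher (4.13% of all genes) and 0 lower (3.8%), edgeR called 0 (0%) and DESeq2 called 3 (0.533%). The 3 were Fmod and Postn, which encode the fibril partners fibromodulin and periostin, and Lox, the enzyme that crosslinks collagen. Their log2 fold changes were 4.14 ± 0.56, 3.19 ± 0.71 and 2.49 ± 0.65. All 8 fibril partners (median 0.96) and all 5 crosslinking enzymes (median 0.62) were positive, whereas of the hydroxylating and glycosylating enzymes 7 were positive and 6 negative. For TAC dantrolene against TAC control 13 were positive and 40 negative (51.8% of all genes were positive), with a median of -0.33. At an unadjusted p under 0.05 there were 0 higher (1.78% of all genes) and 9 lower (1.47%), edgeR called 0 (0%) and DESeq2 called 2 (0.0809%). Those 2 were Fmod with -2.12 ± 0.51 and Postn with -2.78 ± 0.70, and next by p came Bgn, which encodes the proteoglycan biglycan, with -1.19 ± 0.34. All 8 fibril partners (median -0.98) and all 5 crosslinking enzymes (median -0.80) were negative. In sham hearts 25 were positive and 28 negative for dantrolene (52.5% of all genes positive), and between the dantrolene groups 28 were positive and 25 negative (59.9%).

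Markers of cells that make collagen are given beside these results, and over the 12 libraries edgeR called 0 of them in every comparison. The edgeR fit without the 4 libraries apart called some of them higher for TAC control against sham control (3.21% of all genes). These were 7 activated fibroblast, 2 resting fibroblast, 1 endothelial and 1 smooth muscle or pericyte marker. For TAC dantrolene against TAC control it then called 7 activated fibroblast, 2 resting fibroblast and 1 endothelial marker lower (3.17%). For the interaction it called 2 activated and 1 resting fibroblast marker lower (0.0465%). Postn is on the activated fibroblast list as well. Summed over 10 genes, activated fibroblast markers were 220 to 349 CPM in sham control, 189 to 318 in sham dantrolene, 305 to 545 in TAC control and 298 to 359 in TAC dantrolene. Most of that sum was Acta2, which smooth muscle also makes, at 140.0 to 294 CPM. The fold changes of 9 of the 10 were positive for TAC control against sham control (median 2.07). Of them 7 had an unadjusted p under 0.05 (4.13% of all genes were higher at that threshold), edgeR called 0 (0%) and DESeq2 called 5 (0.533%). For TAC dantrolene against TAC control 9 were negative (median -1.93), 7 had an unadjusted p under 0.05 (1.47% of all genes were lower), edgeR called 0 and DESeq2 called 1 (0.0809%). Resting fibroblast markers were 2250 to 2910, 2010 to 3720, 2430 to 5080 and 2480 to 3240 CPM in the 4 groups in that order, and endothelial markers 1140 to 1330, 1340 to 1590, 1520 to 2010 and 1070 to 1620. TAC control 1, whose type I and III chains were low, had the lowest sum of its group for resting (2430) and activated (305) fibroblast and endothelial (1520) markers. TAC dantrolene 1 was the lowest of all libraries for Col1a1 and Col1a2. It had the highest sum of its group for activated fibroblast (359) and endothelial (1620) markers and the middle sum for resting ones (2880). Markers of epicardium and mesothelium, which also make collagen, were 1.59 to 2.95 CPM in sham control, 3.68 to 9.88 in sham dantrolene, 4.61 to 38.1 in TAC control and 4.01 to 30.2 in TAC dantrolene, with 38.1 in TAC control 1. For TAC control against sham control all 6 tested were positive (median 3.86), 5 at an unadjusted p under 0.05 (4.13% of all genes). For TAC dantrolene against TAC control 4 were positive and 2 negative (median 0.23). Without the 4 libraries apart the medians were 1.82 and 2.0, and edgeR called 0 in either comparison (3.21% and 3.17% of all genes). Lrrn4 and Muc16 of this list had 0 reads in 5 libraries each. Medians in these 2 comparisons over the 12 libraries were 0.34 and -0.20 for resting fibroblast and 0.32 and -0.26 for endothelial markers. For smooth muscle and pericyte markers they were 0.10 and 0.10, and for Schwann cell markers 0.47 and 0.16. The part of each of these markers in the collagen differences was not tested.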

How the data were processed

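RNA of the left ventricle was measured in 12 mice, 3 a group, as poly(A) directional libraries, per the labels' protocols. The deposited tables hold whole read counts per gene and FPKM per gene. Per the submitters' processing notes bcl2fastq, TopHat2 and edgeR were used with GRCm38. Not given in the sources used here were versions, the counting tool and whether it used strand. Depth was 25766378 to 38363106 reads a library.

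Groups came from the sample titles. Counts were tested with the edgeR 4.0.16 quasi-likelihood test in R 4.3.3, with TMM scaling, a low-count filter (minimum count 10, minimum total 15) that left 14965 genes, 1 mean a group and 8 residual degrees of freedom. P-values were adjusted over all genes tested by Benjamini-Hochberg, with a threshold of 0.05, and ± beside a fold change is the standard error. DESeq2 1.42.0 was an alternative, besides no filter, only the groups compared, leaving out each library, and a replicate block. The fit without the 4 libraries apart was chosen after seeing the data. Levels between chains were compared in the authors' deposited FPKM. Tests were checked on simulated data. Coordinates come from GENCODE vM21 (GRCm38), and promoters from RefSeq (GRCm38.p6), read with Python 3.11.15.

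Named chains were the main chains of types I, III, IV, V, VI, VIII, XII, XIV, XV and XVIII, and up to 3 chains with the smallest unadjusted p in each direction of each comparison. Col11a1 and the chains given with their levels in the libraries apart include some chosen after their values were seen. The members and gene lists were chosen with earlier results of these data known. Same-numbered mice correlated in their deviations from the group means for dantrolene against control (sham 0.465, 0.366 and 0.672, TAC 0.556, 0.300 and 0.613). The labels name no shared litter or day. Unlike numbers ran from -0.616 to 0.376 in sham (both with sham dantrolene 1) and from -0.561 to 0.221 in TAC (both with TAC dantrolene 3). The libraries apart also share numbers, 3 in the sham groups and 1 in the TAC groups, so pairing by number cannot be told apart from that split. For TAC control against sham control same-numbered mice gave -0.294, 0.283 and -0.304.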

Additional observations from a re-analysis of the deposited data

How the results depend on the processing

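Of the values that answer a comparison 290 stayed within the limits for the same call and 24 moved, and of the fold changes of single chains 927 kept direction and call. For TAC control against sham control edgeR called 0 genes, 3 with no filter, 1 with only the groups compared, 484 without the 4 libraries apart and 0 to 15 when leaving out 1 library (15 without TAC control 1), while DESeq2 called 79. Of the chains DESeq2 called 1 and edgeR without the 4 libraries 7. For TAC dantrolene against TAC control the counts of genes were 0, 1 with no filter, 478 without the 4 libraries, 0 to 1 leaving out 1 library and 12 by DESeq2, with 3 chains without the 4 libraries. DESeq2 called 4 genes for TAC dantrolene against sham dantrolene and 1 for the interaction, which had 7 without the 4 libraries. The median of the chains in the interaction ranged from -0.892 to -0.317 leaving out 1 library. With the replicate number as a block 0 genes were called in every comparison, and no chain's adjusted call changed. As read counts per union exon length, basement membrane chains held 46.4% in sham control and 46.2% in TAC control, and fibrillar chains 23.1% in sham control, 25.5% in sham dantrolene, 26.9% in TAC control and 23.7% in TAC dantrolene. Leaving out 1 library turned 4 fold changes for sham dantrolene against sham control: Col27a1 ranged from -0.803 to 0.0960 (highest without sham control 2), Col8a2 from -0.714 to 0.00399 (highest without sham control 3), and Col6a4 from -1.23 to 3.13 and Col11a1 from -0.867 to 4.02 (both lowest without sham dantrolene 3). For TAC dantrolene against sham dantrolene Col6a4 ranged from -2.2 to 1.09 (highest without sham dantrolene 3) and was 0.889 without the 4 libraries. The causes were not tested. Chains such as Col12a1, with as few as 5 reads a library, are limited by depth.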
